A study of Mus musculus with 12 samples.

Results

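The class 6 semaphorins (Sema6a, Sema6b, Sema6c and Sema6d) and the A plexins (Plxna1, Plxna2, Plxna3 and Plxna4) are 4 ligand genes and 4 receptor genes of neuronal guidance. They were taken by symbol from the 14801 genes of the series' expression table, and all 8 are in it. RNA sequencing was done on primary cells of the cerebral cortex of wild type mouse fetuses, with and without triiodothyronine (T3), the active thyroid hormone. Cortices were taken on gestational day 17.5, and the cells of each of 6 fetuses, numbered as mouse 1 to 6, were split into a culture without T3 and a culture with 10 nM T3 for 24 h. Both kinds of culture had grown for 9 days and had been without the B27 supplement for 24 h when T3 was added. The labels name neither strain nor sex. The cultures hold a mixture of neurons and glia, so a level is an average over cell types, and a change in the share of a cell type cannot be told apart from a change in the RNA per cell.

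Class 6 semaphorins are membrane proteins that signal to cells carrying A plexins, and their own cytoplasmic tails can carry a signal back into the cell that bears them. A plexins act as GTPase-activating proteins for small GTPases and steer axons, dendrites and migrating neurons in the developing cortex, hippocampus and cerebellum. With neuropilins as coreceptors they also receive the secreted class 3 semaphorins. Sema6a is known as a ligand of Plxna2 and Plxna4, Sema6b of Plxna4, and Sema6c and Sema6d of Plxna1.

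Among these 8 genes, the RNA of 1 ligand, Sema6c, rose 1.73-fold with T3, and that of 1 receptor, Plxna4, was 1.14-fold higher. The Plxna4 call was at the threshold (limma adjusted p = 0.0471). It was lost in 10 of 16 other settings, among them the fit without mouse 4 (adjusted p = 0.157). The bases before both annotated starts of Sema6c are shown because this gene carried the clearest change. Both stretches are on the + strand of GRCm38.p6, from RefSeq's promoter windows. The first holds all 250 bases before RefSeq's start. The second holds the first 217 of its 250 bases and stops short of its start, where annotated exon sequence begins. Capitals mark GGGCGG, the GC box bound by Sp1-type factors, in the upper sequence and GGGTCA, a variant of the thyroid hormone receptor motif AGGTCA, in the lower one.
Sema6c, the first start, chr3:95160170-95160419: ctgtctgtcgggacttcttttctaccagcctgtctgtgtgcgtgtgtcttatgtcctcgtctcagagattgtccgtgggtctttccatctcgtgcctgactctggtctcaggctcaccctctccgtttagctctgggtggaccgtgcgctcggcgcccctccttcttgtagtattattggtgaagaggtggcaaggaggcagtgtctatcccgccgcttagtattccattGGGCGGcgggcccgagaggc
Sema6c, the second start, chr3:95164089-95164305: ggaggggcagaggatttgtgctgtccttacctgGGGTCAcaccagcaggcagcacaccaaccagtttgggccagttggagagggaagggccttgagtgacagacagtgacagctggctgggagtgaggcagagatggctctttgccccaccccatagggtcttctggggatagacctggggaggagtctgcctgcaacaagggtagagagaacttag

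RefSeq promoter windows, each 300 bases with 250 before and 50 after a start, were matched for 5 of the 8 genes (Sema6b, Sema6c, Sema6d, Plxna2 and Plxna3) and gave 8 windows. Motifs were searched on both strands, and their letters were partly chosen after the sequences had been seen. AGGTCA was in neither window of Sema6c, and among the 8 windows only the second of Sema6b held it. AGGTCA is held by 16.3% of all 32851 mouse windows. The variant GGGTCA, which 13.7% of all windows hold, occurred in 1 copy in the second window of Sema6c and in the second window of Sema6b. The direct repeat known as DR4, 2 copies of AGGTCA with 4 bases between them, was in none of the 8 windows, and 0.0152% of all windows hold it. GGGCGG occurred in 3 copies in the first window of Sema6c, only 1 of them within the 250 bases shown. It was in 6 of the 8 windows in all, and in 35.7% of all windows. These are matches of letters, not binding sites, and a window without a match says nothing of receptor binding elsewhere.

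Values are given as CPM, a read count brought to a common library size, with TMM as the correction for composition. The libraries held 5272092 to 10837895 reads, and those with T3 were deeper (9273960 ± 1421889, SD, n = 6, against 7008618 ± 951368, SD, n = 6). The 8 genes were covered by 345 to 4204 reads per library, far above the limit of 3 reads, or 0.273 to 0.557 CPM, that a count of 0 allows. Hr, a corepressor that T3 is known to induce, rose from 5.49 ± 1.23 to 46.5 ± 2.92 CPM (SD, n = 6), and Klf9 and Dio3, a transcription factor and a deiodinase also known to respond to T3, rose by 1.46 and 1.79 on the log2 scale. Neuron markers (Tubb3, Map2, Rbfox3, Snap25 and Syt1) summed to 4280 to 6138 CPM and astrocyte markers to 772 to 2934 CPM. The defining markers of both are thus present in all libraries, while microglia and endothelium markers summed to at most 6.68 and 15.8 CPM. One culture, mouse 4 without T3, differed from the rest, with heart muscle markers (Myh6, Myh7 and Ttn) at 1213 CPM in sum against at most 5.81 in the other 11 libraries. The counts of calls among the 8 genes, other listed signalling genes and the cell type markers, and the changes of Sema6c and Plxna4, are also given without mouse 4.

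Sema6c, on chromosome 3 from 95160457 to 95174024 (+ strand, GRCm38; ENSMUSG00000038777), stood without T3 at 61.9, 79.0, 77.2, 64.01, 53.8 and 74.5 CPM in mice 1 to 6. With T3 it stood at 91.7, 113.1, 138.6, 123.7, 116.9 and 128.0 CPM in the same order. The groups did not overlap: the lowest culture with T3, of mouse 1, was above the highest without it, of mouse 2. The mean went from 68.4 ± 9.99 to 118.7 ± 16.0 CPM (SD, n = 6), a log2 change of 0.79 (SE 0.069, 95% interval 0.65 to 0.94), or 1.73-fold with an interval of 1.57 to 1.91. The change passed the test across all genes (limma, mouse as a block, adjusted p = 2.43e-07) and was the 45th largest increase among 13663 genes tested. It ranged from 1.43-fold in mouse 2 to 2.16-fold in mouse 5. Without mouse 4 the log2 change was 0.76, and the call held in 16 of 16 other settings, which changed the scaling, filter, tool or mice.

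**Figure D1:**
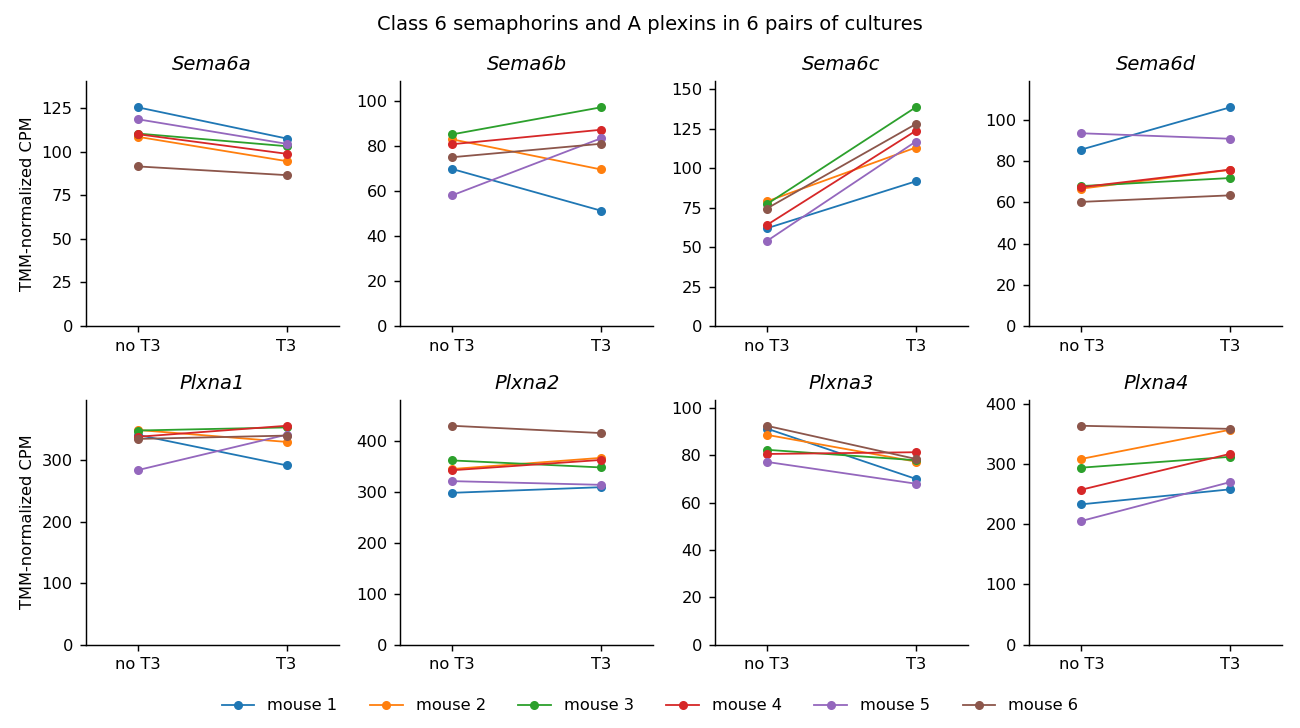
Level of each of the 8 genes in TMM-normalized CPM (vertical axis) in the culture without and with T3 of each mouse, 1 line per mouse. The 6 lines of Sema6c all rise and its 2 columns do not overlap, whereas the columns of the other 7 genes overlap.

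The other ligands did not pass the test. Sema6a, the ligand of Plxna2 and Plxna4 that positions migrating neurons and guides thalamic axons, stood at 125.5, 108.5, 110.4, 110.0, 118.6 and 91.5 CPM without T3 in mice 1 to 6. With T3 it stood at 107.5, 94.6, 103.1, 98.8, 104.5 and 86.5 CPM. Each mouse was lower with T3, but by less than the mice differed from each other, so the groups overlapped. The log2 change was -0.16 (SE 0.050, 95% interval -0.26 to -0.05, adjusted p = 0.0804).

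Sema6d, which acts through Plxna1 and is known from heart development and retinal axon crossing, had a lowest, median and highest value of 60.2, 67.6 and 93.5 CPM without T3 and 63.4, 75.8 and 106.1 CPM with it. It was higher with T3 in 5 of 6 mice, and its log2 change was 0.13 (SE 0.057, 95% interval 0.01 to 0.25, adjusted p = 0.24). Sema6b, a ligand of Plxna4 in hippocampal wiring, ran from 58.2 to 85.3 CPM without T3 and from 51.3 to 97.3 CPM with it. Its changes pointed both ways, from -0.44 in mouse 1 to 0.52 in mouse 5. The mean log2 change was 0.04 (SE 0.103, 95% interval -0.19 to 0.27, adjusted p = 0.9), the least precise of the 8.

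Among the receptors, Plxna4, the A plexin that pairs with Nrp1 for Sema3a and binds Sema6a and Sema6b directly, was higher with T3 in 5 of 6 mice. It is on chromosome 6 from 32144268 to 32588192 (- strand; ENSMUSG00000029765). Its values without T3 were 232.9, 308.4, 293.8, 257.2, 205.2 and 363.4 CPM in mice 1 to 6, and 257.8, 356.8, 311.8, 316.8, 269.9 and 358.2 CPM with T3. The groups overlapped widely, and mouse 6 was the highest culture in both and did not rise. The log2 change was 0.19 (SE 0.054, 95% interval 0.07 to 0.30, adjusted p = 0.0471), or 1.14-fold. This call was at the threshold: it was lost in 10 of those 16 settings, with an adjusted p of 0.0513 by edgeR, 0.0546 by DESeq2 and 0.726 without the mouse as a block, and of 0.157 without mouse 4.

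Plxna3, the receptor that pairs with Nrp2 for Sema3f, did not pass the test and was lower with T3 in 5 of 6 mice. It stood at 91.3, 88.6, 82.3, 80.5, 77.2 and 92.4 CPM without T3 and at 70.0, 77.3, 77.9, 81.3, 68.0 and 78.4 CPM with it. Mice 1, 2, 3, 5 and 6 were lower and mouse 4 was 0.01 higher on the log2 scale, and the groups overlapped. The log2 change was -0.18 (SE 0.058, 95% interval -0.30 to -0.06, adjusted p = 0.0866).

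Plxna1, the receptor of Sema6c and Sema6d, ran from 283.8 to 349.2 CPM without T3 and from 291.6 to 356.0 CPM with it, a log2 change of 0.01 (95% interval -0.10 to 0.13, adjusted p = 0.946). An antisense gene, Gm26811, overlaps 10.7% of its exons, and the library kit does not mark strand, so reads of the 2 cannot be told apart there. Plxna2, the receptor of Sema6a in cerebellar migration and mossy fibre guidance, ran from 298.3 to 430.1 CPM without T3 and from 309.4 to 415.8 CPM with it. Its log2 change was 0.01 (95% interval -0.08 to 0.11, adjusted p = 0.92). The intervals of both genes lie within a change of 0.13 on the log2 scale in either direction.

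Sema6b is on chromosome 17 from 56123085 to 56140343, Sema6d on chromosome 2 from 124089969 to 124667770, Plxna1 on chromosome 6 from 89316314 to 89362620, Plxna2 on chromosome 1 from 194618218 to 194816869 and Plxna3 on chromosome X from 74329066 to 74344689 of the same build. In all, 2 of the 8 genes passed, both higher, where 5.52% of the 13663 genes tested passed in either direction 3.37% were higher and 2.14% lower. Without mouse 4, Sema6c alone passed, beside 4.17% of all genes. Sema6c was the only one of the 8 whose groups did not overlap, which was so for 1.68% of all genes tested. The median log2 change was 0.08 over the 4 ligands and 0.01 over the 4 receptors, beside 0.00 over all genes tested.

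Differences between members were tested within mice, for the 6 pairs of ligands and the 6 pairs of receptors. The exact two-sided sign-flip permutation test over 6 mice can give no p below 0.03125, and p-values were adjusted over the 12 pairs. Sema6c rose more than Sema6a by 0.95 on the log2 scale (SD 0.22), more than Sema6b by 0.75 (SD 0.15) and more than Sema6d by 0.66 (SD 0.33), each in 6 of 6 mice (exact permutation test, adjusted p = 0.0469 for each). The change of Sema6a was below that of Sema6d by 0.28 in 6 of 6 mice (adjusted p = 0.0469, same exact test). Sema6b could not be separated from Sema6a (difference 0.19, SD 0.32, in favour of Sema6b, adjusted p = 0.263, exact) or from Sema6d (0.09 in favour of Sema6d, SD 0.46, adjusted p = 0.75, exact).

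Among the receptors, the change of Plxna3 was below those of Plxna1, Plxna2 and Plxna4 in 6 of 6 mice, with differences of 0.19, 0.19 and 0.36 on the log2 scale (adjusted p = 0.0469 for each, exact permutation test). The change of Plxna4 was also above that of Plxna2, by 0.17 (adjusted p = 0.0469, exact). The difference of 0.17 between Plxna4 and Plxna1 did not pass (adjusted p = 0.0833, exact), and that between Plxna1 and Plxna2 was 0.00 with an SD of 0.20. Thus 8 of 12 pairs passed, all at the smallest p the design can give. With fewer pairs at that p none would have passed the adjustment. The pairs also share genes, so the 8 calls are not independent of each other.

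The 8 genes divided differently between mouse and hormone. T3 accounted for 81.1% of the variation of Sema6c over the 12 libraries on the log2 scale and the mouse for 13.4%. In Plxna2 the mouse accounted for 95.8% and T3 for 0.218%. Sema6d (87.6%), Plxna4 (78.4%), Sema6a (68.4%) and Sema6b (60.1%) also had their largest share by mouse. The mouse share was 43.1% in Plxna1 and 30.8% in Plxna3. T3 accounted for 46.6% in Plxna3, more than the mouse, and for 28.5% in Sema6a. These are shares of sums of squares, not adjusted for the number of mice, so the mouse takes a larger share than T3 even of noise. Mouse 6 was highest in the mean of its cultures for Plxna2, Plxna3 and Plxna4 and lowest for Sema6a and Sema6d. In Sema6b and Plxna1 the part that neither mouse nor T3 accounted for was 39.3% and 56.5%.

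Levels can be set against each other only per length, here as CPM per kilobase of merged exons. Plxna1 was the highest of the 8 in both groups, at 36.7 ± 2.71 without T3 and 37.0 ± 2.59 with it (SD, n = 6). Without T3, Plxna2 (20.4 ± 2.62), Plxna4 (19.6 ± 4.04) and Sema6b (19.0 ± 2.56) followed, and the steps between them lay within the spread. Sema6a (12.6 ± 1.301), Sema6c (11.5 ± 1.68) and Plxna3 (10.8 ± 0.793) formed the next level, again within the spread of each other. Sema6d was lowest at 6.96 ± 1.23, below Plxna3 in 6 of 6 libraries.

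With T3, Sema6c moved from the level of Sema6a to that of Sema6b: it stood at 20.0 ± 2.69 CPM per kilobase, beside 19.8 ± 4.04 for Sema6b, and was the higher of the 2 in 3 of 6 libraries. Plxna4 stood at 22.1 ± 2.99, above Plxna2 at 20.5 ± 2.28 in 6 of 6 libraries. Sema6a (11.3 ± 0.875), Plxna3 (9.58 ± 0.666) and Sema6d (7.64 ± 1.45) came last. As a share of the summed level per kilobase of the 4 ligands, Sema6c went from 23.0% ± 2.69 to 34.0% ± 2.39 (SD, n = 6), and the sum itself went from 50.1 ± 2.89 to 58.7 ± 5.57, higher in 6 of 6 mice. Among the 4 receptors the share of Plxna4 went from 22.2% ± 2.46 to 24.7% ± 1.66 and that of Plxna3 from 12.4% ± 0.933 to 10.7% ± 0.475, while their sum stood at 87.6 ± 8.57 and 89.3 ± 7.30. The order depends on the length used. With the longest coding transcript, which was tried once the data were known, Plxna2 stood at 31.7 without T3, well above Plxna4 at 21.5, and Sema6c with T3 at 29.5, above Sema6b at 21.0.

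**Figure D2:**
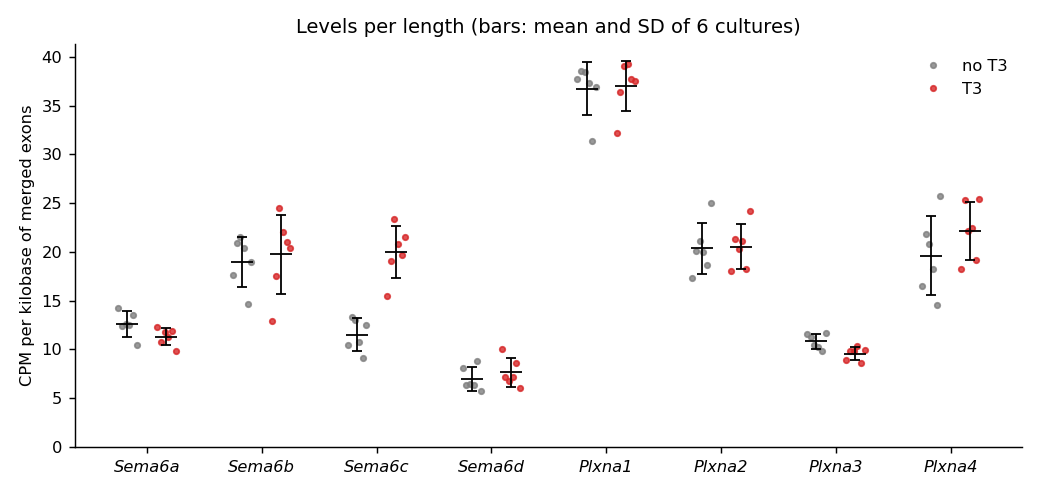
CPM per kilobase of merged exons (vertical axis) for the 8 genes, a point per culture, grey without and red with T3, with bars for the mean and SD of 6 cultures. Plxna1 is highest in both groups, and Sema6c moves from 11.5 to 20.0, the level of Sema6b at 19.8.

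Libraries differed in how they covered GC-rich genes, the group to which Sema6b and Sema6c belong. Sema6b (63.5% GC in its longest transcript) and Sema6c (61.5%) lay at percentiles 99.2 and 98.0 of all genes, Plxna1 (57.3%) at percentile 88.0, and the other 5 genes between percentiles 44.7 and 78.3. The GC tilt of a library is the median log2 deviation of the genes in the most GC-rich of 20 bins minus that in the poorest. Without T3 it was -0.39 in mouse 5 and -0.21 in mouse 6, and 0.04 to 0.07 in the other 4 mice. With T3 it was -0.30 in mouse 1 and -0.16 in mouse 2, and 0.17 to 0.26 in the other 4. The lowest cultures of Sema6b, mouse 1 with T3 at 51.3 CPM and mouse 5 without T3 at 58.2 CPM, were those of the lowest tilt, and so were the lowest of Plxna1, at 291.6 and 283.8 CPM.

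**Figure D3:**
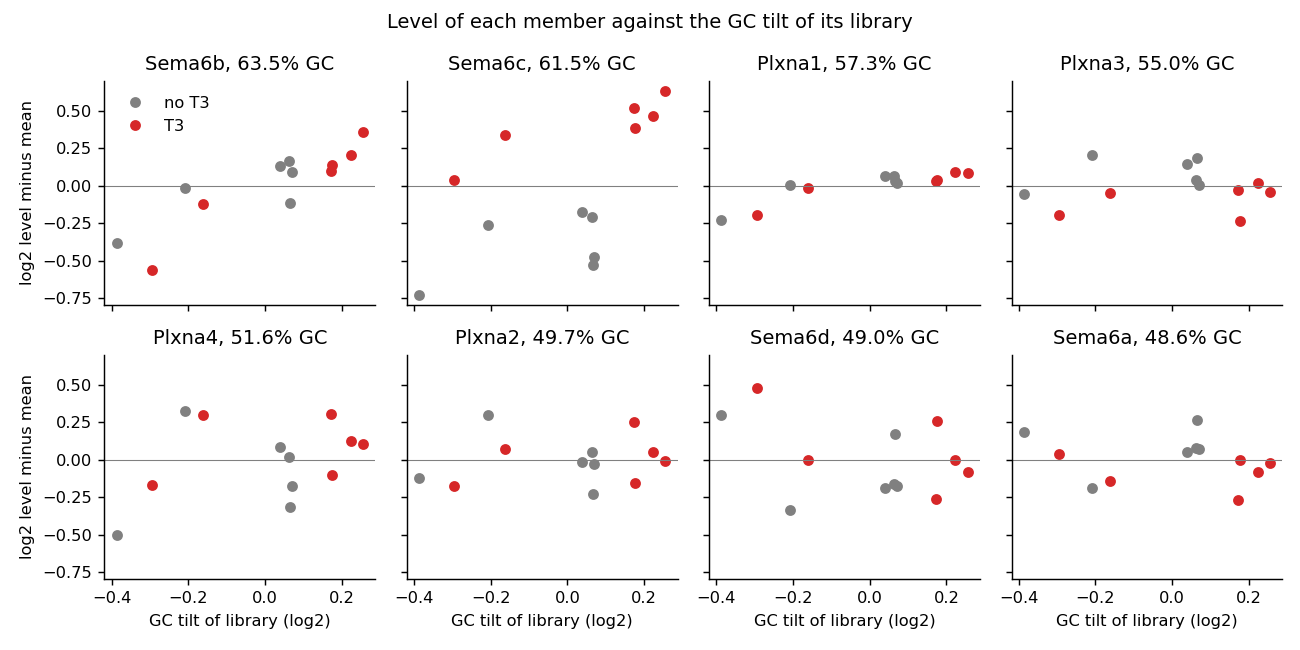
Log2 level of each gene relative to its mean over 12 libraries (vertical axis) against the GC tilt of the library (horizontal axis, log2), grey without and red with T3, genes in order of GC content. Sema6b and Plxna1 are lowest in the 2 libraries of lowest tilt, and Sema6c shows 2 separate bands, the 6 red points above the 6 grey ones.

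A fit in which the median deviation of each GC bin was subtracted from each library was added after the data had been seen. Sema6c rose by 0.73 in it (SE 0.044, adjusted p = 8.47e-12 by limma), and its change ranged only from 0.56 to 0.82 over the 6 mice, with an SD of 0.10 in place of 0.23. Sema6a (-0.16, adjusted p = 0.0114), Plxna3 (-0.21, adjusted p = 0.00397, lower in 6 of 6 mice) and Plxna4 (0.17, adjusted p = 0.0171) passed as well. The call of Plxna3 held whichever mouse was left out, that of Sema6a in 4 of 6 such fits and that of Plxna4 in 3 of 6. Sema6b turned to -0.03 and Plxna1 to -0.05, neither past the threshold (adjusted p = 0.817 and 0.47). So 4 of the 8 genes passed with the correction, where 10.0% of all genes did, and 8 of the 12 pairs again differed, with Plxna1 against Plxna4 gained (adjusted p = 0.0469, exact permutation test) and Plxna2 against Plxna4 lost (0.075). What caused the tilt was not tested.

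**Figure D4:**
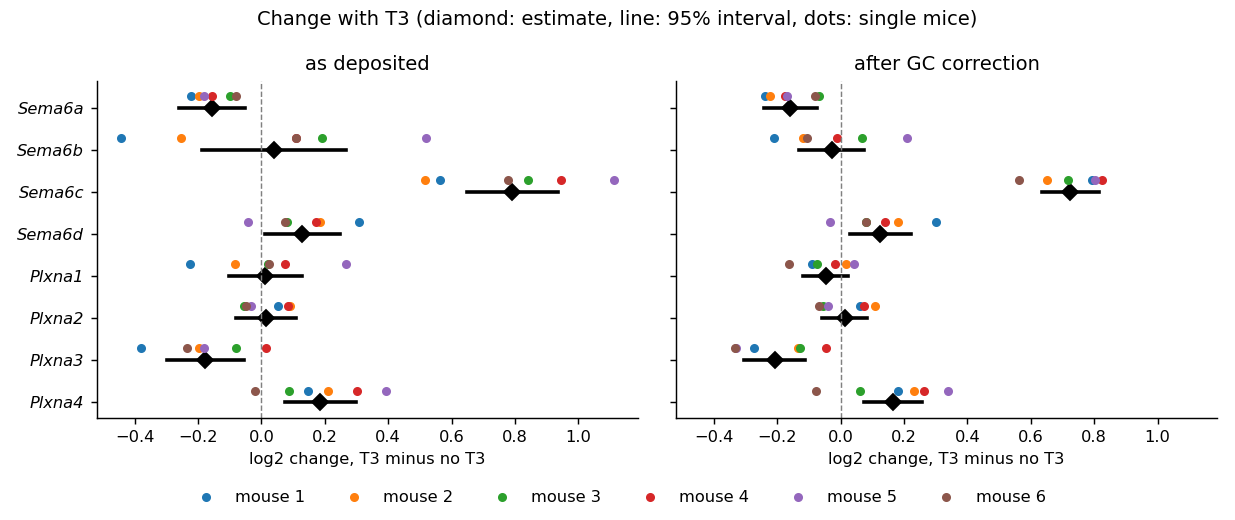
Log2 change with T3 (horizontal axis) of the 8 genes as deposited (left) and after GC correction (right), with a dot per mouse, a diamond for the estimate and a line for its 95% interval. Sema6c lies at 0.79 and 0.73, and the dots of Sema6b and Plxna1 draw together after correction.

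Signalling genes outside the 8 were taken from 6 lists with 50 genes, of which 46 were tested. Of these lists, 1 holds plexins of other classes rather than partners of the 8 genes (4 tested, 1 higher and 1 lower). Src and Abl1 stand in 2 of the lists and were counted once. Of these 46, 5 were higher and 3 lower, 17.4% beside 5.52% of all genes tested, with a median log2 change of -0.02. The lists were chosen with earlier results of these data known, so this share is a description and no test of the pathway. It was 6.52% without the mouse as a block, beside 1.3% of all genes. Without limma's trend and robust estimation it was 10.9%, beside 2.47% of all genes. Among 8 tested coreceptors and membrane partners, only Nrp1, the coreceptor for Sema3a, passed: it fell from 200 ± 10.8 to 156 ± 9.65 CPM (SD, n = 6), a log2 change of -0.36 (adjusted p = 8.1e-05) with groups that did not overlap. Nrp2, the coreceptor of Plxna3, stood at -0.16 (adjusted p = 0.0772), and L1cam, Nrcam, Chl1, Cntn2, Ptk7 and Kdr did not pass. Trem2 and Tyrobp, microglial partners of Plxna1, are not listed in the table.

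Of 11 small GTPases and regulators, Rnd1, a GTPase that binds the plexin's cytoplasmic part, rose from 33.9 ± 6.02 to 43.1 ± 8.55 CPM (log2 change 0.33, adjusted p = 0.00829), a call lost without mouse 3 (adjusted p = 0.0615). Farp2, the exchange factor released from A plexins on ligand binding, stood at 0.39 and missed the threshold (adjusted p = 0.0533). Of 10 kinases, Pak1, a kinase downstream of Rac1, rose from 261 ± 16.2 to 332 ± 19.8 CPM (log2 change 0.35, adjusted p = 0.00019), with groups that did not overlap. Rac1, Fyn, Cdk5 and Gsk3b did not pass.

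Of 10 MICAL and CRMP effectors, Mical2, an enzyme that oxidises actin, rose by 0.30 (adjusted p = 0.00345), and Dpysl2, the CRMP that carries the Sema3a signal to microtubules, fell by 0.21 (adjusted p = 0.0065). Of 5 proteins that bind the tails of class 6 semaphorins, Evl, the partner of Sema6a, rose from 140 ± 9.30 to 163 ± 22.0 CPM (log2 change 0.20, adjusted p = 0.0479), a call lost in 5 of the 6 fits that left out 1 mouse (adjusted p up to 0.195, and 0.132 without mouse 4), with RLE scaling and by DESeq2. The lists also held 4 tested plexins of other classes. Plxnd1, a receptor for Sema3e, rose from 114 ± 32.3 to 168 ± 59.2 CPM (log2 change 0.54), and Plxnc1, the receptor for Sema7a, fell from 237 ± 13.8 to 166 ± 16.6 CPM (log2 change -0.52). Plxnb1 and Plxnb2 stood at 0.07 each and did not pass. Without mouse 4, 5 of the 46 genes passed as higher and 4 as lower, beside 4.17% of all genes. After GC correction 6 passed as higher and 9 as lower, 32.6% beside 10.0% of all genes.

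**Figure D5:**
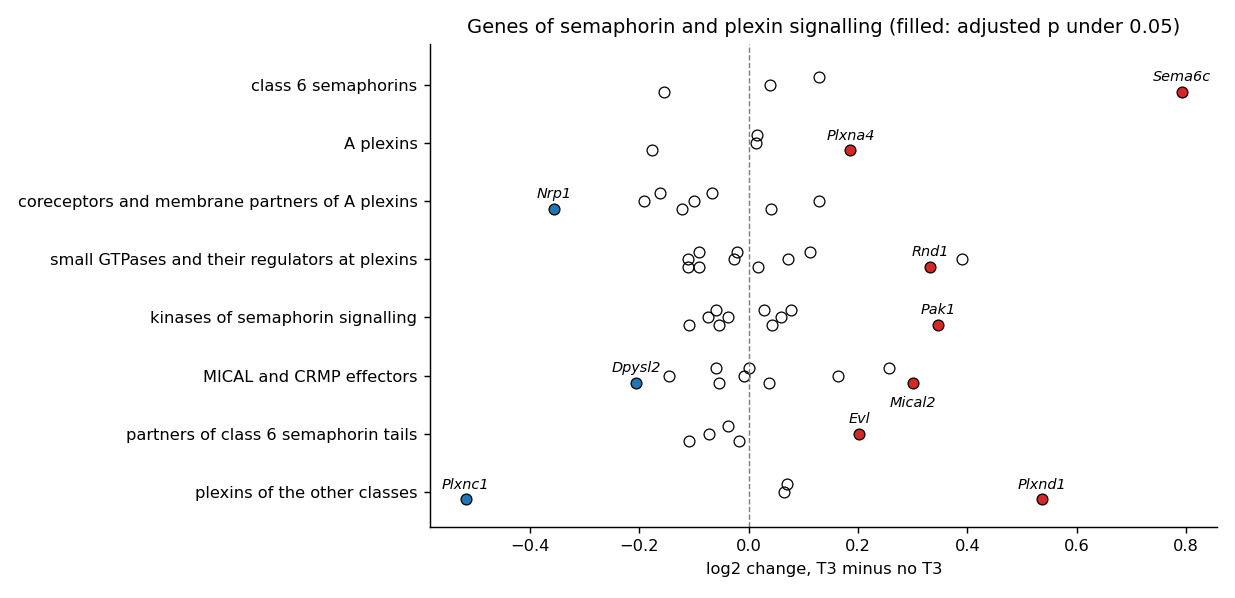
Log2 change with T3 (horizontal axis) of the tested genes of 8 lists, a point per gene, filled red or blue where adjusted p was under 0.05. Sema6c at 0.79 is the farthest point to the right, and Plxnc1 at -0.52 the farthest to the left.

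Cell type markers were tested in the same fit, where 3.37% of all genes passed as higher and 2.14% as lower. Of 6 astrocyte markers 4 passed, all higher (Slc1a2, Gfap, Aqp4 and Aldh1l1), and the list's sum ran from 772 to 2536 CPM without T3 and from 1169 to 2934 CPM with it. The call of Slc1a2 held whichever mouse was left out, while those of Gfap, Aqp4 and Aldh1l1 were lost in 3, 4 and 3 of these 6 fits. Without the mouse as a block no astrocyte marker passed, beside 1.3% of all genes. Of 5 oligodendrocyte precursor markers 3 passed, all higher (Gpr17, Olig1 and Olig2), with sums of 279 to 415 CPM and 378 to 472 CPM, and the call of Olig2 was lost in 4 of the 6 fits and by DESeq2. Of 5 neuron markers Rbfox3 alone passed, higher with T3, a call lost without mouse 3 (adjusted p = 0.0615) and without mouse 4 (adjusted p = 0.0544), and the sums ran from 4571 to 6138 CPM and from 4280 to 5458 CPM. Of 5 tested markers of mural cells and fibroblasts Dcn passed, lower in 6 of 6 mice (log2 change -0.47, adjusted p = 0.00806), a call lost without mouse 3 (adjusted p = 0.0535). The list's sum ran from 71.0 to 368.5 CPM without T3, highest in mouse 4, and from 41.6 to 148.2 CPM with it. Without mouse 4, where 4.17% of all genes passed, 2 astrocyte markers, 2 precursor markers, no neuron marker and Dcn passed. After GC correction, where 10.0% of all genes passed, 3 astrocyte, 4 precursor and 4 neuron markers (Rbfox3 and Snap25 higher, Map2 and Syt1 lower) and Dcn passed. When 1 mouse was left out of the corrected fit, Syt1 passed only without mouse 4 and Map2 only without mouse 1, 2 or 4. Tubb3, not called with all mice, passed as lower without mouse 3. The corrected call of Gfap was lost without mouse 1, 3 or 4, that of Olig2 without mouse 1, 2 or 4 and that of Pdgfra without mouse 2. The part of these cell types in the change of Sema6c or Plxna4 was not tested.

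The genes whose levels ran most like Sema6c over the 12 libraries, by Pearson's r among 12172 genes and over points that share library and T3 group, were Mmp17, a membrane-bound metalloproteinase (r = 0.984), Sema7a, a lipid-anchored semaphorin (0.971), Gabbr2, a GABA-B receptor subunit (0.953), Kazn (0.951) and Stac2 (0.950). Each of the 5 was itself higher with T3, by 0.33 to 1.05 on the log2 scale. The levels compared were not corrected for GC. Mmp17, Sema7a, Gabbr2 and Stac2 lay at GC percentiles 82.5 to 91.0 and Kazn at 40.8, and the part of the GC tilt in r was not tested. Those most like Plxna4 were Nt5dc3 (0.969), Syt7, a calcium sensor of vesicle release (0.932), Srgap3, a GTPase-activating protein (0.922), Myt1l, a neuronal transcription factor (0.920), and Scrn1 (0.913). None of these 5 passed the test for T3, with log2 changes of 0.04 to 0.12.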

How the data were processed

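Expression was read from deposited signal values, which the file headers describe as TMM-normalized counts and which were treated as TMM-normalized CPM. The submitters' processing notes name CASAVA, FastQC, Bowtie, TopHat, HTSeq, edgeR and GRCm38 without versions. Listed genes reach 1 CPM in 2 or more of 12 libraries. Every value (100%, tolerance 0.01 reads) was a whole multiple of 1 read, which gave back the reads. The fit covered 13663 genes (filterByExpr, edgeR 4.0.16) and used limma 3.58.1 (R 4.3.3), trended and robust, on log2(value + 0.5), a scale that understates changes of low genes, with mouse as block. P-values are two-sided and Benjamini-Hochberg adjusted over all genes tested, and 0.05 was the threshold. Alternatives included edgeR's quasi-likelihood test and DESeq2 1.42.0 on the recovered reads, which called 782 and 522 genes.

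The design states that each fetus gave both cultures. Own partners correlated at 0.237 to 0.638 in their deviations from the group means, and 12 of 12 libraries matched their partner best. No pair of libraries within a group agreed within sampling noise (chi-square per degree of freedom 2.51 to 19.3). Symbols, exons and transcripts come from GENCODE M21, promoter windows from RefSeq. GC content had values for all 8 genes and was corrected in 20 bins. The fits were tested on simulated data. The members and gene lists were chosen with earlier results of these data known. The text names all 8 members, listed pathway genes past the threshold or with the smallest p of a list, Hr, Klf9, Dio3, and the 5 genes most like each called member; other names were chosen after their values were seen.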

Additional observations from a re-analysis of the deposited data

Results flagged for a closer look

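Of 24 groups of 6 cultures tested (the 8 genes in CPM in each group, and as changes), 1 held a culture set apart from the other 5. Plxna1 in the culture of mouse 5 without T3 stood at 283.8 CPM, against 334.6 to 349.2 CPM in the other 5 cultures without T3. Its distance to the nearest culture, as a part of the range, exceeded the 95% critical value of Dixon's test for 6 values, and chance exceeds it in about 1 in 20 groups. The library of this culture had the lowest GC tilt of the 12, -0.39, and its part in the value was not tested.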

How the results depend on the processing

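Sema6c passed in all 16 other settings (log2 change 0.73 to 0.85). Plxna4 lost its call with RLE scaling (0.18), edgeR (0.18), DESeq2 (0.18), voom (0.18), limma without trend and robust estimation (0.19) and no replicate block (0.19), and the number of the 8 genes called was then 1. Of all genes, 5.53%, 5.72%, 3.9%, 5.84%, 2.47% and 1.3% passed in these settings, in the same order. Leaving out 1 mouse, with or without GC correction, gave 0.13 to 0.23 for Plxna4, -0.24 to -0.14 for Plxna3, -0.18 to -0.14 for Sema6a, -0.075 to 0.14 for Sema6b, -0.069 to 0.060 for Plxna1 and -0.0052 to 0.028 for Plxna2. In these fits 1 to 4 of the 8 genes were called, beside 3.35% to 10.2% of all genes. Plxna4 lost its call without mouse 2, 3, 4 or 5. GC correction gave 4 of the 8 genes called, beside 10.0% of all genes, with Sema6a at -0.16, Plxna3 at -0.21, Sema6b at -0.028 and Plxna1 at -0.047. Without the replicate block the calls of Rnd1, Mical2, Dpysl2, Evl and Plxnd1 among the listed signalling genes were lost too, and of the cell type markers only Gpr17 passed. Without trend and robust estimation the calls of Rnd1, Mical2, Dpysl2 and Evl were lost, and of the cell type markers only Slc1a2 and Gpr17 passed. The number of all genes called was 178 without the replicate block, 337 without trend and robust estimation, 1360 with GC correction, and 459 to 1382 with 1 mouse left out. The reported fit is the paired one. With 5 mice the exact test cannot pass, so 0 pairs were called, and the difference of Sema6b minus Sema6d ran from -0.22 to 0.042, that of Plxna1 minus Plxna2 from -0.062 to 0.054. Apart from the pair tests, the cause of these shifts was not tested.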

Other observations

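Over the 6 mice, the changes of some pairs of the 8 genes ran together or in opposite directions, although none of the 28 pairs passed adjustment (lowest adjusted p 0.156, exact permutation tests). For Sema6b and Plxna1, Pearson's r was 0.96995 (exact permutation p = 0.0167) and Spearman's rho 0.771 (p = 0.103), with r = 0.872 without the 2 mice farthest from the median; after GC correction r was 0.515. For Sema6b and Sema6d, r was -0.946 (exact permutation p = 0.00833) and rho -0.943 (p = 0.0167), with r = -0.702 without the 2 farthest mice and -0.890 after GC correction. Other pairs shared the lowest adjusted p. Their r was 0.936 for Sema6b and Sema6c, 0.924 for Sema6c and Plxna1 and -0.915 for Sema6d and Plxna1. After GC correction these were 0.336, 0.541 and -0.251.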
